A study of Bos taurus with 8 samples.

Results

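The genes described here encode titin and proteins of the Z-disc, of the M-band and of sarcomere assembly: TTN, UNC45B, ACTN2, LDB3, MYOZ1, MYOZ2, TCAP, MYBPC1, TMOD1, and MYOM1. They were chosen by name, and 7 of the 10 listed genes could be matched to a probe, with 1 probe each among the 21475 probes of the array that were not controls. A probe for ACTN2, TMOD1, or MYOM1 could not be matched by name, and these genes were not analysed here. LDB3, MYBPC1, MYOZ1, MYOZ2, and TCAP were named by the RefSeq accession of their probe, and TTN and UNC45B by the transcript accession in the gene list of the study. That list was drawn up from transcripts called in both breeds in these same data, so a probe for TTN and UNC45B was found only because they had been called, and their calls are no independent evidence.

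The values came from primary cultures of muscle cells from the semitendinosus muscle of 15-month-old bulls of 3 breeds. Limousin (LIM) and Hereford (HER) are kept for beef, and Holstein-Friesian (HF), the reference, is kept for milk. No group carried a treatment or a genetic change, and all cells were frozen while proliferating, at 80% confluence. RNA of a beef culture and of an HF culture was hybridized together on each of 8 two-colour arrays, 4 with LIM cells in Cy5 and 4 with HER cells in Cy3. All 4 LIM arrays were on one slide and all 4 HER arrays on another, so the breed of a comparison cannot be told apart from its slide or its dye orientation. The labels call the arrays biological replicates, and the bull behind each HF channel was not stated, so p-values measure the spread between arrays. The study had 4 bulls of each breed, so the 8 HF channels came from no more than 4 HF bulls. HF signals of same-numbered LIM and HER arrays deviated together, so the arrays were read as paired by replicate number through HF cells. The main fits nevertheless took the 8 arrays as independent, so their p-values do not account for this pairing. Among the fits, only an alternative with the replicate number as a block used it.

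The sarcomere is the contractile unit of muscle. Actin filaments are anchored at the Z-disc, myosin filaments are held together at the M-band, and titin, a giant elastic protein, spans from the one to the other and serves as a scaffold when new sarcomeres are laid down. Telethonin (TCAP) caps the end of titin in the Z-disc, myozenins and LDB3 are Z-disc proteins that bind alpha-actinin, and UNC45B is a chaperone that folds the myosin head. Most of these genes are known for their rise when myoblasts stop dividing and fuse into myotubes.

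The data showed 2 patterns among the 7 genes. TTN, UNC45B, and MYOZ2 were near background in HF cells and had mean log2 ratios of beef over HF between 2.07 and 4.47, each called as higher except TTN in HER. LDB3 and TCAP were well above background in every channel and had mean log2 ratios between -0.69 and -0.40, each called as lower except TCAP in HER. MYOZ1 did not pass the test in either comparison, and MYBPC1 was not above background anywhere. A gene was called where the adjusted p was at most 0.05 and the fold at least 1.3.

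In LIM cells, 5 of the 7 genes were called, 3 higher (TTN, UNC45B, MYOZ2) and 2 lower (LDB3, TCAP), beside 28.2% of all probes called in that comparison, 13.2% higher and 15% lower. In HER cells, 3 of the 7 were called, 2 higher (UNC45B, MYOZ2) and 1 lower (LDB3), beside 18.1% of all probes, 7.57% higher and 10.5% lower. Among the 5 genes named by RefSeq alone, 3 were called in LIM, 1 higher and 2 lower, and 2 in HER, 1 higher and 1 lower. Without adjustment of p, 5 of the 7 passed in LIM and 5 in HER, beside 36.1% and 28.6% of all probes. The median log2 ratio over the 7 genes was 0 in LIM and 0.21 in HER, beside a median of 0 over all probes in LIM. Both comparisons used HF cells as the reference, so they are not independent of each other. In these bulk samples, fewer cells of a type and less RNA per cell cannot be told apart.

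**Figure D1:**
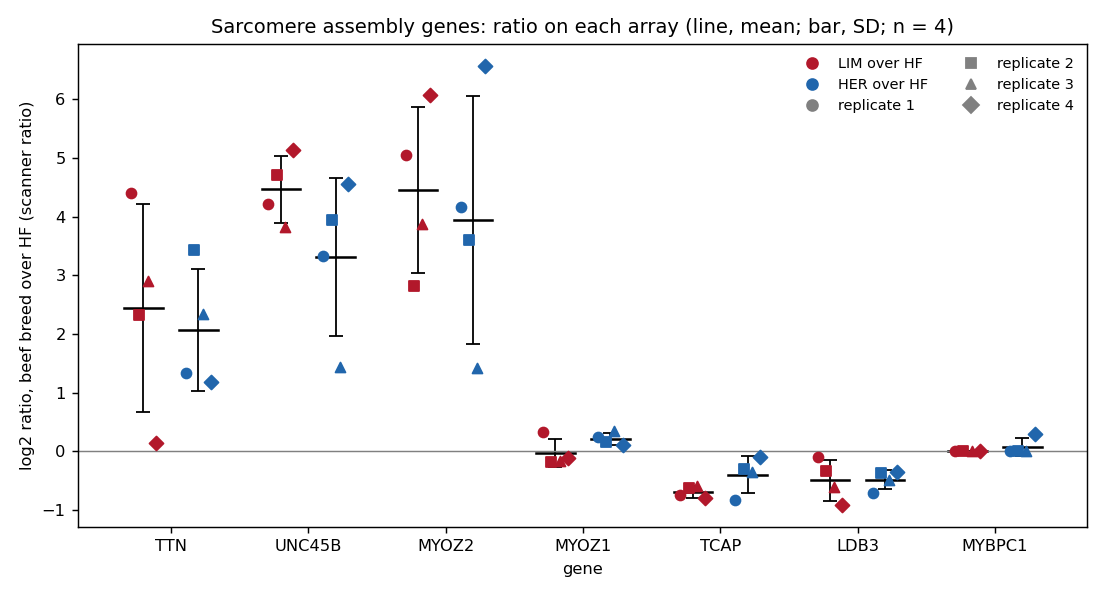
Log2 ratio of beef breed over HF for each gene on each array, from the scanner ratios, with LIM in red and HER in blue, the marker shape giving the replicate, the line the mean and the bar the SD (n = 4). TTN, UNC45B, and MYOZ2 sit above 0 on all 8 arrays, LDB3 and TCAP below 0 on all 8, and MYOZ1 and MYBPC1 near 0.

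UNC45B, the myosin chaperone, was the gene with the lowest adjusted p of the 7 in both comparisons. Its log2 ratio was 4.21, 4.71, 3.83, and 5.13 on LIM replicates 1 to 4. On HER replicates 1 to 4 it was 3.33, 3.93, 1.44, and 4.56. All 8 ratios were above 0, the groups overlapped, and HER replicate 3 was the lowest. That array had the most flagged spots, 130 beside 6 to 37 on the others, and the smallest share of beef probes well above background (68.8%). The part of array quality in its ratios was not tested. On HER replicate 3 one spot of the probe gave 2.88 and the other was listed at 0 by the scanner software. In 5973 of the 7090 spots listed at 0 on that array neither channel differed from background. The reason for the 0 of this spot was not looked up.

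The mean log2 ratio of UNC45B was 4.47 ± 0.57 in LIM (SD, n = 4 arrays, adjusted p = 0.00151) and 3.32 ± 1.35 in HER (SD, n = 4 arrays, adjusted p = 0.00734). HF cells were not well above background on any array, with a log2 signal between 2.29 and 2.84, whereas LIM cells were well above it on 4 of 4 arrays and HER cells on 3 of 4. With the scanner's background subtraction, the fold is therefore a lower bound, at least 5.55-fold higher in LIM and at least 2.48-fold higher in HER. Such a bound sets the beef mean against the lowest HF signal among probes well above background, on signals normalized within and between arrays, and is open to dye bias. It holds for that processing only. With normexp on measured backgrounds the log2 ratio of UNC45B was 0.83 in LIM and 0.40 in HER, below the bounds of 2.47 and 1.31. The HER call was lost when both signals were raised to a floor (adjusted p = 0.0712) and when local backgrounds were subtracted as measured with normexp (0.40, adjusted p = 0.359). That floor was set for each array on the scanner's processed signals. It was the higher of the lowest red and the lowest green signal well above background.

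Of the known partners of UNC45B in myosin folding, neither the methyltransferase SMYD1 nor the chaperone HSP90AA1 was called, both picked after their values were seen. SMYD1 had a mean log2 ratio of -0.20 ± 0.44 in LIM (SD, n = 4, limma adjusted p = 0.482) and 0.18 ± 0.39 in HER (SD, n = 4, limma adjusted p = 0.551). HSP90AA1 had -0.18 ± 0.31 in LIM (SD, n = 4, limma adjusted p = 0.30) and 0.01 ± 0.13 in HER. Both were well above background on all 8 arrays in both channels.

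MYOZ2, the myozenin of slow fibers and heart, which tethers calcineurin to the Z-disc, had log2 ratios of 5.06, 2.81, 3.87, and 6.07 on LIM replicates 1 to 4. On HER replicates 1 to 4 they were 4.17, 3.61, 1.42, and 6.57. All 8 arrays were above 0 and replicate 4 was the highest in both breeds. HER replicate 3 was again the lowest, with 2.83 in one spot and 0 in the other.

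The mean of MYOZ2 was 4.45 ± 1.42 in LIM (SD, n = 4 arrays, adjusted p = 0.00712), with the HF channel well above background on 1 of 4 arrays, LIM replicate 2. With both signals raised to the floor it was 3.09 (adjusted p = 0.0132). In HER it was 3.94 ± 2.12 (SD, n = 4 arrays, adjusted p = 0.0191), with HF cells not well above background on any array and HER cells on 3 of 4. With the scanner's background subtraction, MYOZ2 was thus at least 4.15-fold higher. The HER call was lost without HER replicate 1 (adjusted p = 0.0762), without HER replicate 2 (adjusted p = 0.0697), with the floor on both signals (log2 ratio 2.18, adjusted p = 0.0611), and with normexp on measured backgrounds (log2 ratio 0.76, adjusted p = 0.363).

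TTN had log2 ratios of 4.40, 2.33, 2.90, and 0.14 on LIM replicates 1 to 4. On HER replicates 1 to 4 they were 1.33, 3.42, 2.35, and 1.17. All 8 were above 0, but LIM replicate 4 was close to it, and replicate 4 was the lowest in both breeds. The HF signal was also highest there, with a log2 signal of 3.82 beside 2.25 to 2.88 on the other LIM arrays, and 5.02 beside 2.14 to 2.49 on the other HER arrays.

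The mean of TTN was 2.44 ± 1.77 in LIM (SD, n = 4 arrays, adjusted p = 0.0288), with a 95% confidence interval from 0.90 to 3.99. LIM cells were well above background on 4 of 4 arrays and HF cells on 0 of 4. With the scanner's background subtraction, this bounds TTN at at least 1.74-fold higher. The lowest signal well above background differed between channels, however. On LIM replicate 4 it was 3.47 for LIM cells and 4.17 for HF cells, beside TTN signals of 3.96 and 3.82. In HER the mean was 2.07 ± 1.04 (SD, n = 4 arrays, adjusted p = 0.0665), past the fold but not the adjusted p, and HER cells were well above background on 2 of 4 arrays and HF cells on 1 of 4. The LIM call was lost without LIM replicate 1 (log2 ratio 1.79, adjusted p = 0.0925), replicate 2 (adjusted p = 0.0796), or replicate 3 (adjusted p = 0.103), and with every other background correction tried (log2 ratio 0.41 to 0.67). The HER ratio passed under 8 of 28 alternatives, among them array weights (adjusted p = 0.019), scaling between arrays (adjusted p = 0.0248), leaving out LIM replicate 4 (adjusted p = 0.0256) or 1 (adjusted p = 0.0477), and a filter that asked for 4 of 16 channels well above background (adjusted p = 0.0418), which TTN met with 7 channels, 6 of them in beef cells. With the floor on both signals the LIM call was lost (0.94, adjusted p = 0.152), and the HER ratio was 0.47 (adjusted p = 0.522).

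**Figure D2:**
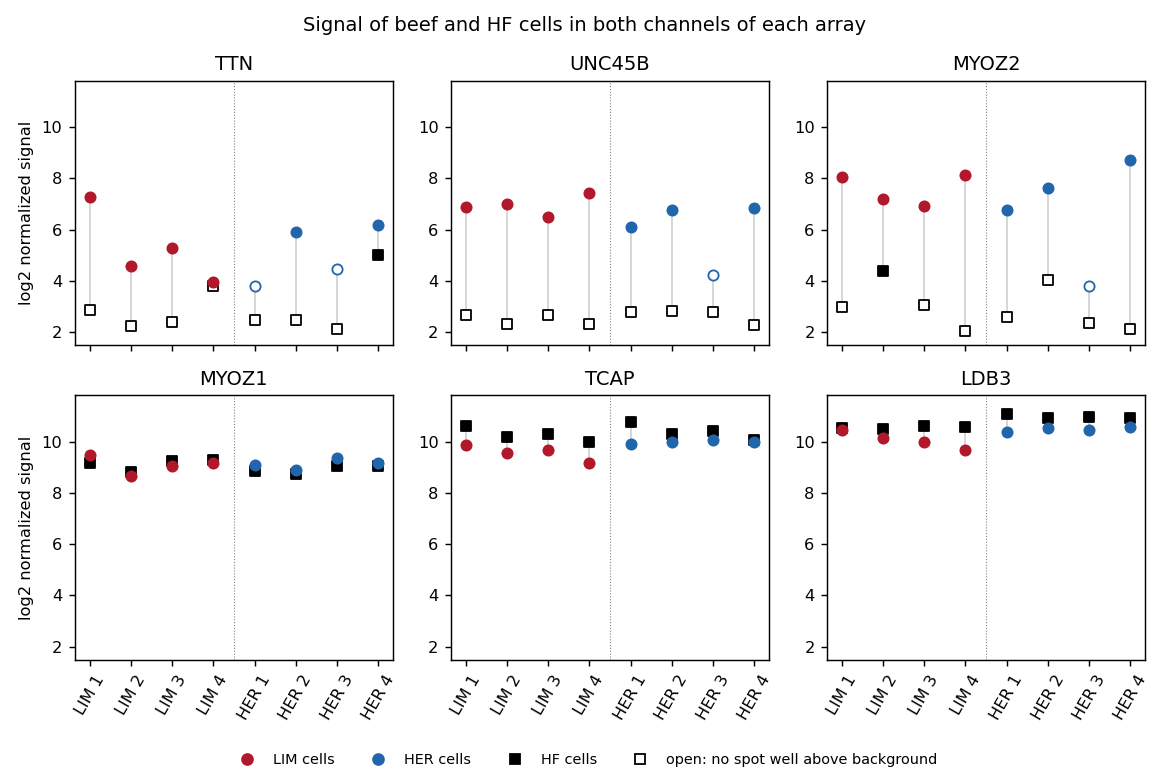
Log2 normalized signal of beef cells (circles, LIM red and HER blue) and HF cells (black squares) on each array, 1 panel per gene, with open symbols where no spot was well above background and a grey line joining the channels of an array. For TTN, UNC45B, and MYOZ2 nearly all HF squares are open and near the bottom, while for MYOZ1, TCAP, and LDB3 every symbol is filled and the channels lie close together. Levels of different panels are not comparable, since each probe has its own response.

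TCAP, the titin cap, had log2 ratios of -0.75, -0.63, -0.60, and -0.80 on LIM replicates 1 to 4. On HER replicates 1 to 4 they were -0.84, -0.30, -0.36, and -0.09. All 8 arrays were below 0, the LIM values lay close together, and the HER values were spread from the lowest of all to near 0. The mean was -0.69 ± 0.09 in LIM (SD, n = 4 arrays, adjusted p = 0.00513), 1.62-fold lower, and this call held under all 28 alternatives. In HER it was -0.40 ± 0.32 (SD, n = 4 arrays, adjusted p = 0.0524), which missed the threshold and passed it without HER replicate 4 (log2 ratio -0.50, adjusted p = 0.0422).

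LDB3, a PDZ and LIM domain protein of the Z-disc, had log2 ratios of -0.10, -0.34, -0.62, and -0.91 on LIM replicates 1 to 4. On HER replicates 1 to 4 they were -0.71, -0.37, -0.49, and -0.36. All 8 arrays were below 0 and the groups overlapped over most of their range. The mean was -0.49 ± 0.35 in LIM (SD, n = 4 arrays, adjusted p = 0.0289) and -0.48 ± 0.16 in HER (SD, n = 4 arrays, adjusted p = 0.0434). Both calls stood near the threshold. The LIM call was lost without LIM replicate 2 (adjusted p = 0.0586), 3 (adjusted p = 0.105), or 4 (log2 ratio -0.35, adjusted p = 0.0611). The HER call was lost without any one HER array (adjusted p = 0.0788 to 0.158) and without LIM replicate 2 or 3, whose spread enters the common error (adjusted p = 0.063 and 0.0667). With the replicate number as a block, both calls were lost (adjusted p = 0.0791 in LIM and 0.103 in HER). Normexp on measured backgrounds also lost both (adjusted p = 0.0623 and 0.381). No background correction (adjusted p = 0.0644) and the floor on both signals (adjusted p = 0.0555) lost the HER call. Across all 28 alternatives, the LIM call was lost under 8 and the HER call under 13.

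MYOZ1, the myozenin of fast fibers, had log2 ratios of 0.33, -0.18, -0.16, and -0.12 on LIM replicates 1 to 4. On HER replicates 1 to 4 they were 0.25, 0.15, 0.34, and 0.11. It was well above background in 16 of 16 channels, and only LIM replicate 1 of the LIM arrays reached the HER range. The mean was -0.03 ± 0.24 in LIM (SD, n = 4 arrays, adjusted p = 0.857), with a 95% confidence interval from -0.26 to 0.20, and 0.21 ± 0.10 in HER (SD, n = 4 arrays, adjusted p = 0.166), with an interval from -0.02 to 0.44. Neither ratio was called under any of the 28 alternatives. The third myozenin, MYOZ3, came from the list of other Z-disc genes and fell, by 0.81 on the log2 scale in LIM (SD 0.04, adjusted p = 0.00194) and by 0.63 in HER (SD 0.26, adjusted p = 0.00887). Within one small family, then, MYOZ2 rose, MYOZ3 fell, and MYOZ1 was not called.

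MYBPC1, the slow myosin-binding protein C of the thick filament, was well above background in 0 of 16 channels. Its log2 ratio was set to 0 on all 4 LIM arrays and on HER replicates 1 to 3, and was 0.29 on HER replicate 4. No fold can be given for it.

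The breeds were then set against each other through their ratios to HF. For 0 of the 7 genes did the LIM ratio differ from the HER ratio at the threshold (limma, Benjamini-Hochberg), and 0 did at an unadjusted p of at most 0.05 with the fold, beside 0.354% of all probes after adjustment (0.237% higher and 0.116% lower in LIM) and 13.7% without it, and 0 probes with the replicate number as a block. The interval of the difference was wide for the genes near background. For UNC45B the LIM ratio was higher by 1.16 on the log2 scale, with a 95% confidence interval from -0.41 to 2.72 (adjusted p = 0.458). Between same-numbered arrays LIM was higher in 4 of 4, by 0.88, 0.77, 2.39, and 0.57, with an adjusted p of 0.267 with the replicate number as a block. For TTN the difference was 0.38, from -1.81 to 2.56, and for MYOZ2 0.51, from -2.20 to 3.22. For LDB3 it was -0.01, from -0.45 to 0.43, and for TCAP -0.30, from -0.68 to 0.09. This difference also carries the difference between slides and dye orientations.

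With the arrays of both breeds in one model with a dye term, a beef effect was estimated in which a constant dye bias cancels. In it 5 of the 7 genes were called, 3 higher and 2 lower, beside 30.6% of all probes, 14.2% higher and 16.4% lower. Without adjustment of p it was also 5, beside 34.6%. TTN and UNC45B had a probe only because they had been called in these data. Among the 5 genes named by RefSeq alone, 3 were called, 1 higher and 2 lower. Same-numbered arrays were taken as independent in this model, though their HF signals deviated together and there were fewer HF bulls than arrays. Its p-values do not account for this. The effect was 3.89 for UNC45B (adjusted p = 0.000457), 4.20 for MYOZ2 (adjusted p = 0.00152), and 2.26 for TTN (95% confidence interval 1.16 to 3.35, adjusted p = 0.00785). It was -0.55 for TCAP (adjusted p = 0.0022) and -0.49 for LDB3 (adjusted p = 0.00593). All 5 remained called when any one of the 8 arrays was left out. With normexp on measured backgrounds, TTN (0.28, adjusted p = 0.0943), LDB3 (-0.32, under the fold), and TCAP (-0.36, under the fold) were lost, and with the floor on both signals TTN was lost (0.71, adjusted p = 0.115). MYOZ1 had 0.09 (adjusted p = 0.336).

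Other genes of the sarcomere, 80 listed of which 40 had a probe, placed these members among their neighbours. Of the 40, 17 were higher and 1 lower in LIM, with a median log2 ratio of 0.53, and 15 were higher and 1 lower in HER, with a median of 0.35, beside the 13.2% higher and 15% lower of all probes in LIM and the 7.57% and 10.5% in HER. The smaller lists that follow stand beside the same shares. Among 8 other Z-disc genes, 2 were higher and 1 (MYOZ3) lower in each breed. The higher ones were MYOT, a Z-disc protein that bundles actin, with 3.91 ± 0.54 in LIM and 2.61 ± 2.12 in HER (SD), and ANKRD1, a titin-binding ankyrin repeat protein, with 2.15 ± 1.06 and 1.64 ± 0.81 (SD). MYOT was not well above background in HF cells on any array. With the scanner's background subtraction, this bounds its mean at at least 3.73-fold higher in LIM and at least 1.49-fold higher in HER. HER cells were well above background on only 2 of 4 arrays, however. On HER replicates 2 and 3 their log2 signals of 4.165 and 3.405 lay below the lowest HF signals well above background, 4.732 and 4.702.

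In the thin filament, 7 of 10 genes were higher in each breed and none lower, among them ACTA1, skeletal alpha-actin, ACTC1, cardiac alpha-actin, TNNC2, fast troponin C, and LMOD2, a leiomodin that elongates thin filaments. LMOD2 had a mean log2 ratio of 3.99 ± 0.93 in LIM and 2.83 ± 1.21 in HER (SD) and was not well above background in HF cells on any array. With the scanner's background subtraction, this bounds it at at least 3.80-fold and at least 2.11-fold higher. In the thick filament, 5 of 8 genes were called higher in LIM and 3 of 8 in HER. One of the 5, MYH2, was not well above background in HF cells, and no lower bound above 1 could be given for it. MYH3, embryonic myosin heavy chain, led them with 4.30 ± 0.68 and 4.05 ± 0.47 (SD), and the light chains MYL1 and MYL2 were called in both breeds, MYL1 with 3.53 in LIM and 3.13 in HER.

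At the M-band, 1 of 6 genes was called in each breed, no larger a share than the 28.2% and 18.1% of all probes, and both were named after their values were seen. CKM, muscle creatine kinase, was called in LIM, but HF cells were not well above background on any array and no lower bound above 1 could be given. TRIM54, a ubiquitin ligase of muscle, was called in HER with a mean log2 ratio of 0.38. The ratios did not differ between breeds at the threshold for CKM (adjusted p = 0.113) or TRIM54 (adjusted p = 0.466). Of 8 other assembly and chaperone genes, 2 were called in each breed, both higher. KLHL41, a kelch protein that stabilizes nebulin, had 3.99 ± 1.07 in LIM and 3.71 ± 0.45 in HER (SD), and MYOG, myogenin, a factor that starts differentiation, had 2.04 ± 0.51 and 2.07 ± 0.40 (SD). No list was tested as a set.

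**Figure D3:**
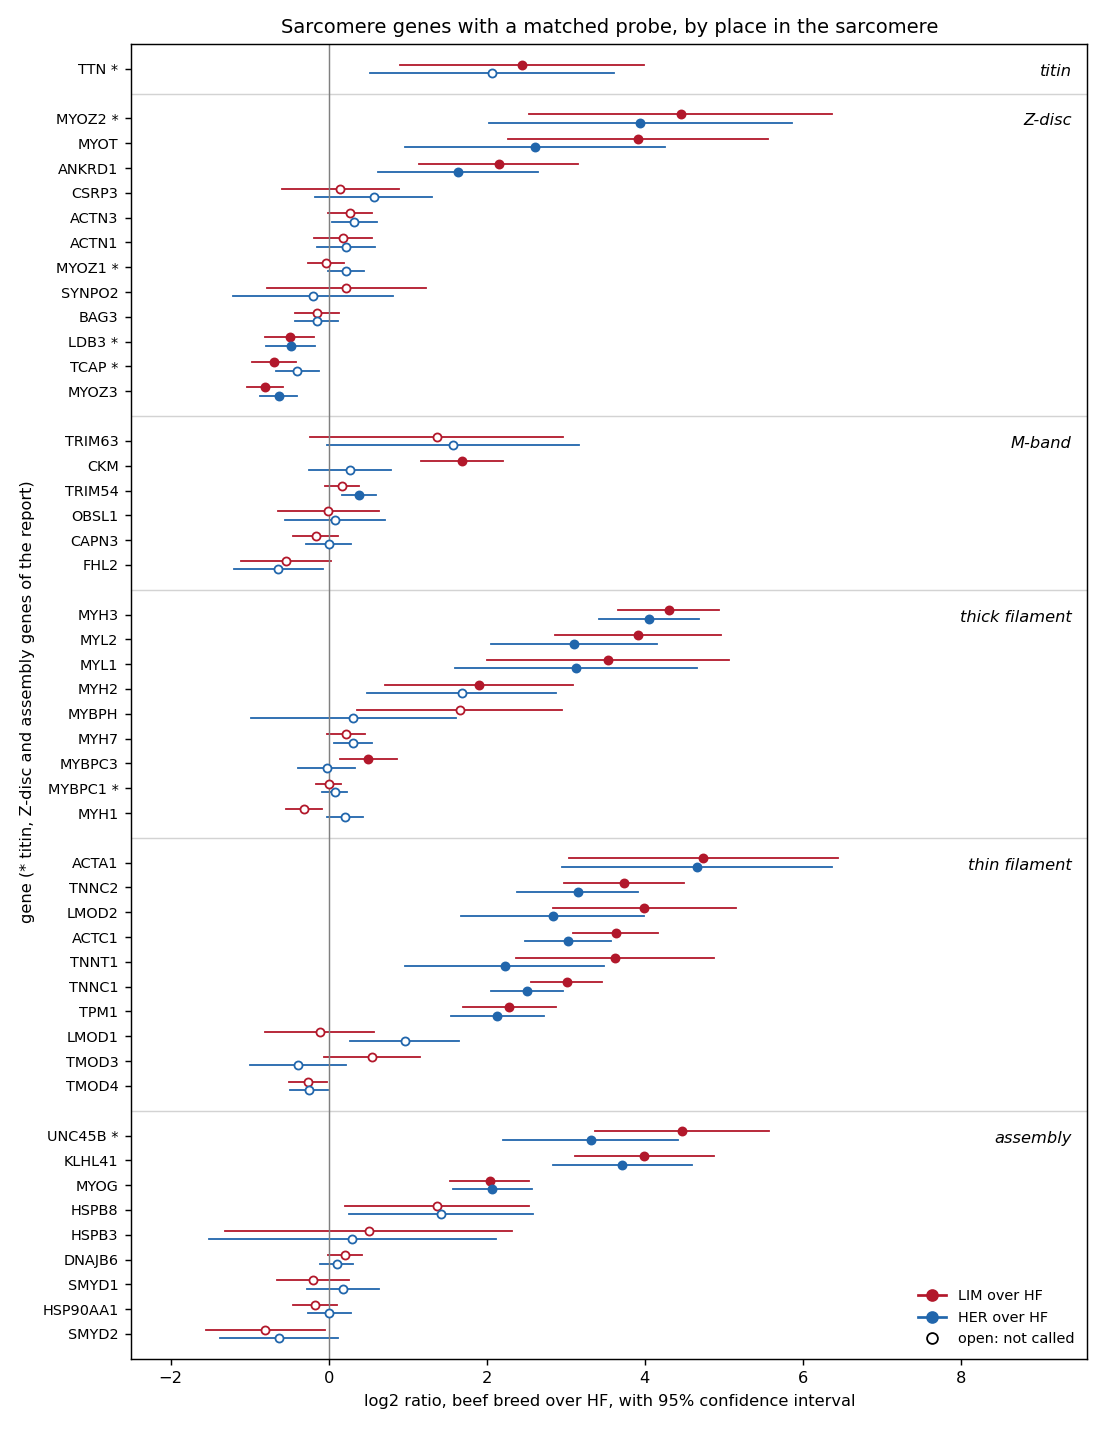
Log2 ratio of beef breed over HF with its 95% confidence interval for every sarcomere gene with a matched probe, grouped by place in the sarcomere, LIM in red and HER in blue, filled where called, with a star on the genes the report is about. Most thin filament genes and part of the thick filament and assembly genes lie well to the right of 0, whereas the Z-disc group runs from MYOZ2 at 4.45 in LIM down to MYOZ3 at -0.81.

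Markers of the cells in these cultures moved as well. All 6 measured myoblast and satellite cell markers were well above background in HF cells on at least 1 array of each comparison, and 4 of the 6 were higher in each beef breed, among them CDH15, M-cadherin, at 2.56 ± 0.61 in LIM and 2.19 ± 0.51 in HER (SD), and DES, desmin, at 2.91 ± 0.92 and 2.47 ± 0.50 (SD). Summed over the list, normalized signal was 37420 to 111400 in LIM cells beside 13700 to 56830 in HF cells of those arrays, and 46640 to 94810 in HER cells beside 16260 to 51980. Of 4 differentiation markers, 4 were called higher in LIM, CKM among them, and 3 in HER, with sums of 8597 to 26150 beside 1050 to 2492, and of 4963 to 21920 beside 692.2 to 2345. These 4, MYOG, CKM, MYH3, and TNNC1, were the same probes already counted among the sarcomere genes above, so they are no further evidence. The part of the myoblast and differentiation markers in the ratios of TTN, UNC45B, and MYOZ2 was not tested.

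Fibroblast markers did not move one way. Of 8, 4 were higher and 1 lower in each breed, with COL3A1, a fibrillar collagen, at 3.00 ± 1.48 in LIM and 2.38 ± 1.26 in HER (SD), and PDGFRA, a receptor of mesenchymal cells, at -1.48 ± 0.44 and -1.36 ± 0.47 (SD). Their summed signal was 359200 to 625100 in LIM cells beside 57150 to 223500, and 365100 to 525600 in HER cells beside 69450 to 203300. These unlogged sums were mostly collagen signal and do not show the fall of PDGFRA. The mean log2 signal in LIM cells was 17.32 for COL1A1, 17.11 for COL1A2, and 16.45 for COL3A1, beside 8.96 for PDGFRA. Of 5 smooth muscle markers, 2 were called in LIM and 1 in HER. Of 4 cardiac markers, which bear on MYOZ2, NPPA and NKX2-5 were not well above background in any channel, and NPPB and TNNI3 were lower in LIM. The part of other cell types in the ratios of the 7 genes was not tested.

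The genes whose ratios over the 8 arrays lay closest to each member were found among the named genes outside the list, by the mean absolute difference in log2 ratio. SMPX was closest to MYOZ2 (0.661), LMOD2 to UNC45B (0.525), and DKK3 to TTN (0.515). LANCL2 was closest to LDB3 (0.0873), FXYD3 to MYOZ1 (0.0581), and DUOXA1 to TCAP (0.056). These are descriptions over arrays that share dye and slide, and a small ratio has many close neighbours.

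The sizes differed between ways of processing. For the genes dim in HF cells, the alternative that joined normexp with an offset, backgrounds as measured, and loess gave a LIM ratio of 0.83 for UNC45B, 1.09 for MYOZ2, and 0.41 for TTN. For TCAP and LDB3, well above background in both channels, it gave -0.54 and -0.38 in LIM. In HER it gave -0.19 for TCAP and -0.27 for LDB3, beside -0.40 and -0.48 from the scanner ratios. On HER replicate 3 it gave -0.01 and -0.02, beside -0.36 and -0.49. Signs were kept by UNC45B, MYOZ2, TTN, TCAP, and LDB3 in both comparisons under all alternatives run.

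**Figure D4:**
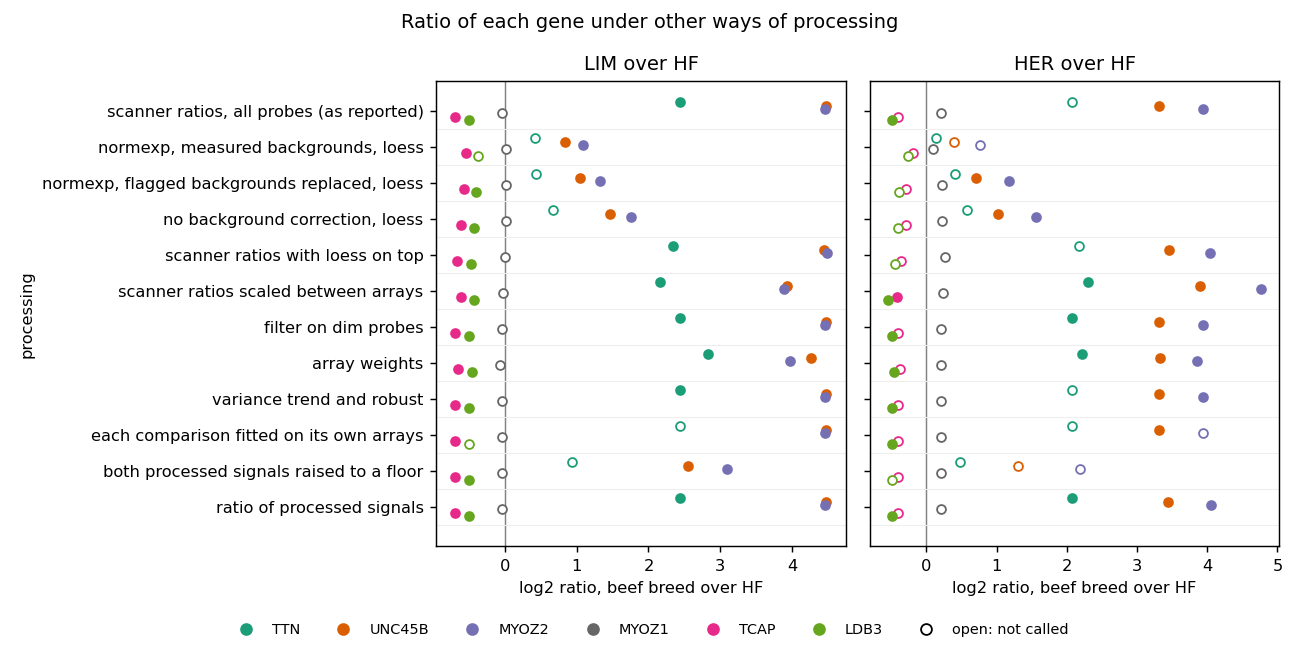
Log2 ratio of each gene in LIM over HF and HER over HF under 12 ways of processing, filled where called and open where not, with colours for genes. UNC45B, MYOZ2, and TTN slide toward 0 where background is corrected with normexp or not at all or where a floor is set. LDB3 and TCAP stay below 0, and in HER lie nearest to it with normexp on measured backgrounds.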

How the data were processed

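RNA from muscle cells of LIM, HER, and HF bulls was hybridized on 8 two-colour arrays, 4 per comparison. Per the labels, LIM was in Cy5 and HER in Cy3, with HF in the other dye. The authors deposited the output of Feature Extraction 10.7.3.1 for each array, with a log10 ratio of red over green, processed signal intensity per channel and flags for spots, and a table of the same log10 ratio. That software subtracts background, normalizes dyes, and lists a ratio of 0 for 3673 to 7090 of 42990 spots per array, in 3094 to 5973 of which neither channel differed from background. The genome build of the alignment of probes was not given in the sources used here.

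The deposited log10 ratio was turned to log2 beef over HF, spots of a probe were averaged without flagged spots, and all 21475 probes were fitted with limma 3.58.1 (lmFit, eBayes) in R 4.3.3, with a mean for each comparison and, in a further model, a beef and a dye effect. Calls needed a Benjamini-Hochberg adjusted p of at most 0.05 and a fold of at least 1.3. Signals printed on the log2 scale were scaled across channels from the deposited intensity (Aquantile). Probes well above background made up 68.8% to 85.2% per channel, no spot was saturated, and 293 probes had a ratio of 0 on all arrays. With 4 arrays, their number limits the precision, and an exact sign test could not go below a two-sided p of 0.125.

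Pairing by replicate number was read from the data, since the labels do not state it. HF signals of same-numbered LIM and HER arrays, as deviations from the mean of each slide over 15131 probes, correlated at 0.77 to 0.897, beside -0.481 to 0.0759 for other numbers, and all 4 LIM and all 4 HER arrays correlated best with their own number. Deviations of the ratios correlated at -0.212 to 0.487. This HF check was made after the results of the fits were known. A fit with the replicate number as a block was an alternative.

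Of 20693 accessions, 7793 matched a RefSeq gene. No coordinates are given. The members and lists were chosen with earlier results of these data known. Every member was to be named, with up to 4 genes of each list that were called in both breeds and had the largest beef effect, and the gene closest to each member. Alternatives covered background, normalization, filters, weights, models, thresholds, the t-test of the study's methods, and leaving out each array. The steps were tested on simulated data.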

Additional observations from a re-analysis of the deposited data

Results flagged for a closer look

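In 2 of 13 groups of 4 arrays, 1 array lay far from the other 3 by Dixon's criterion, which marks about 5% of groups by chance. MYOZ1 on LIM replicate 1 had a log2 ratio of 0.331 and stood apart from the other LIM arrays by 0.881 of the whole range. MYBPC1 on HER replicate 4 had 0.295, while the other 3 HER arrays were set to 0 by the scanner software, and neither channel was well above background there.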

How the results depend on the processing

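Of the 7 genes, 5 were called in LIM. This became 3 with normexp on measured backgrounds, with LIM arrays fitted alone, and with the methods' t-test (2 after adjustment), and 3 to 5 on leaving out an array, 3 without LIM replicate 2 or 3. In HER, 3 became 0 with normexp on measured backgrounds, with a floor on both signals, and with the adjusted t-test, 5 with ratios scaled between arrays or unadjusted p, and 1 to 4 on leaving out an array, 1 without HER replicate 1 or 2. The beef effect gave 5, but 2 with normexp on measured backgrounds and, without TTN, 4 with the floor. The difference between breeds gave 0, but 1 from the ratio of processed signals, MYBPC1, which was dim throughout. The other sarcomere genes called numbered 18 in LIM (5 with the adjusted t-test) and 16 in HER (0 with that test and with normexp on measured backgrounds, 10 to 21 on leaving out an array, 10 without HER replicate 2). Between breeds 0 became 5 with unadjusted p and 2 from processed signals.

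All probes called in LIM numbered 6058, but 4022 with normexp on measured backgrounds, 3707 with LIM arrays alone, 697 with the adjusted t-test, and 3736 without LIM replicate 3. In HER they numbered 3885, but 0 with normexp on measured backgrounds and with the adjusted t-test, 2222 with HER arrays alone, 6149 with unadjusted p, and 1412, 1212, and 2195 without HER replicates 1, 2, and 3. The beef effect gave 6565, but 3122 with normexp on measured backgrounds. Between breeds 76 became 0 to 2948, and 0 to 19 on leaving out an array. The floor and the ratio of processed signals were chosen after seeing the data. The causes were not tested.

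With the replicate number as a block, 4 genes were called in LIM, 2 in HER, 0 between breeds, and 5 in the beef effect, with LDB3 lost in both comparisons (adjusted p = 0.0791 and 0.103), and 0 probes between breeds. The block changed no other call of the 7 genes. It takes variation shared by same-numbered arrays out of the error, which suits the difference between breeds. The study had 4 bulls of each breed, so HF bulls served on both slides. The block cannot show whether the calls against HF would hold with HF bulls not shared between slides. The slide as a block was not run, since each slide held 1 comparison. HF signal near background leaves the size of the ratios of TTN, UNC45B, and MYOZ2 uncertain.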
